A study of Mus musculus with 8 samples.

Results

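The 6 genes Ccne1, Ccne2, Cdk4, Cdk6, E2f1 and Myc, which drive cells from G1 into DNA synthesis, were examined in the CD38high and CD38low fractions of splenic myeloid cells from tumor-bearing mice. They were chosen by symbol from the authors' deposited table of changed probesets, which lists 498 of the 23332 probesets measured, 374 of them lower and 124 higher in CD38high cells. Each of the 6 symbols has 1 row there. That table was made from the contrast between the fractions, at a p under 0.001 and at least a 2-fold change per the series design. Run here with equal variance and without the permutations that the design also names, the methods' t-test at those limits gave 351 probesets, all in the table, and did not give the other 147 rows. Since the table chose the genes on the contrast between the fractions, that contrast is described for them and not tested.

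Splenocytes with CD11b and Gr1 on their surface, by which myeloid-derived suppressor cells of the mouse are usually defined, were sorted by CD38, a surface enzyme that consumes NAD. The CD38high group held 4 arrays, from mouse 1, mouse 2, mouse 3 and a pool of splenocytes from 3 mice. The CD38low group held the 4 matching arrays from the same 3 mice and the same kind of pool. Every animal in both groups was a 12-month-old L2-Cre;p120f/f mouse on a mixed C57BL/6x129 background with an esophageal tumor. In the published line of this name, Cre removes p120-catenin in squamous epithelium of the mouth and esophagus. Mice without tumors or without the transgene were not analysed here. Expression is given as the authors' log2 value per probeset, where 1 unit is a 2-fold difference. Each probeset has its own scale, so levels are not compared between genes. Array medians lay between 6.92 and 7.1. Cd38 itself averaged 12.45 ± 0.15 in CD38high and 10.46 ± 0.57 in CD38low cells (SD, n = 4 each), on the side of the sort. Itgam (CD11b) and Ly6g (a gene for part of the Gr1 antigen) could not be found by name, so the gate was not checked on them here.

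As background, passage from G1 into S phase is set by kinases and the transcription factors they release. Growth signals raise D-type cyclins, which activate the kinases CDK4 and CDK6. These phosphorylate the retinoblastoma protein, which then lets go of E2F factors such as E2F1. E2F factors switch on the cyclin E genes Ccne1 and Ccne2 and the genes of the replication machinery, and cyclin E with CDK2 phosphorylates the retinoblastoma protein further. MYC is a transcription factor that binds DNA as a dimer with MAX, often at the sequence CACGTG (an E-box), and raises genes of ribosome production, metabolism and the cell cycle, among them Cdk4. In bone marrow and spleen, granulocyte precursors divide, and neutrophils leave the cell cycle as they mature.

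Start site windows from RefSeq (GRCm38.p6, 250 bases before to 50 after a start site, 300 in all) were matched for 4 of the 6 genes by symbol: Ccne1, Cdk4, Cdk6 and E2f1. Both strands were searched for the E-box CACGTG and for the E2F words TTTCCCGC, TTTCGCGC, TTTGCCGC and TTTGGCGC. The E-box reads the same on both strands. The 250 bases before the start site are shown, 5′ to 3′, for both kinases, which carried the E-box, and for Ccne1, which carried none, with the E-box in capitals. They are chr10:127063285-127063534 (plus strand) for Cdk4, chr5:3343643-3343892 (plus strand) for Cdk6 and chr7:38107491-38107740 (minus strand) for Ccne1.
Cdk4: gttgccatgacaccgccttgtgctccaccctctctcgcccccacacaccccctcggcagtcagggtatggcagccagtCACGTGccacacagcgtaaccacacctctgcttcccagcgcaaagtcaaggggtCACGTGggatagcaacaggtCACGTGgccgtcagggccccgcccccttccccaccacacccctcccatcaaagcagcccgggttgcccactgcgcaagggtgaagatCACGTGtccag
Cdk6: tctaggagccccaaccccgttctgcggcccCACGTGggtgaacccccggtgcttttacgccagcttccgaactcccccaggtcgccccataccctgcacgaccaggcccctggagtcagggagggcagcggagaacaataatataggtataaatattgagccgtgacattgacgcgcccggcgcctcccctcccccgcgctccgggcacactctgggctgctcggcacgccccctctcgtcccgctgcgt
Ccne1: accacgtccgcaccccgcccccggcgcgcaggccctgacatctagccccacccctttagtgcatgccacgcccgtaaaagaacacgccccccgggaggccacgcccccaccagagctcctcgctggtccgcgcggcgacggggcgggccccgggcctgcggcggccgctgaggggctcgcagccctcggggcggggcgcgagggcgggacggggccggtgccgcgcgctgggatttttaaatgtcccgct
The Cdk4 window held 4 E-boxes, whose first bases lie 172, 118, 98 and 11 bases before the start site. Among all 32851 windows 7.15% held at least 1 E-box and 0.0244% (8 windows) held at least 4. The Cdk6 window held 1, which begins 220 bases before a start site that lies 2889 bases inside the RefSeq gene. No E-box was found in the windows of Ccne1 and E2f1; the E2f1 window belongs to a start site 466 bases inside the gene. None of the 4 E2F words was found in any of the 4 windows, against 2.26% of all windows with at least 1, so no match overlapped an E-box. GC content was 67% for Cdk4, 66.7% for Cdk6, 76% for Ccne1 and 77.3% for E2f1, against a median of 52.7% over all windows. A match is only a description of the letters, and no match says only that these letters are absent from this window.

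All 6 genes were lower in CD38high cells, in each of the 3 mice and in the pool, so that 24 of 24 differences within a mouse or pool were below 0. The kinase genes and the cyclin E genes had the larger differences, 3.12-fold to 3.69-fold lower on average. E2f1 and Myc were each 2.01-fold lower. For all 6 genes the 4 CD38high values lay below the 4 CD38low values, a pattern shown by 9.37% of all probesets. Each of the 6 was at least 2-fold lower on average, as were 2.22% of all probesets. All 6 were also among the probesets called lower by limma at an adjusted p under 0.05, as were 6.88% of all probesets without a block and 9.87% with the source (mouse or pool) as a replicate block. Since the genes were selected on this contrast, nothing is read from these counts. The median difference of the 6 was -1.66 on the log2 scale, against -1.24 over the 374 lower rows of the authors' deposited table and 0.04 over all probesets. Bulk values cannot tell fewer cells that express a gene from less RNA per cell.

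**Figure D1:**
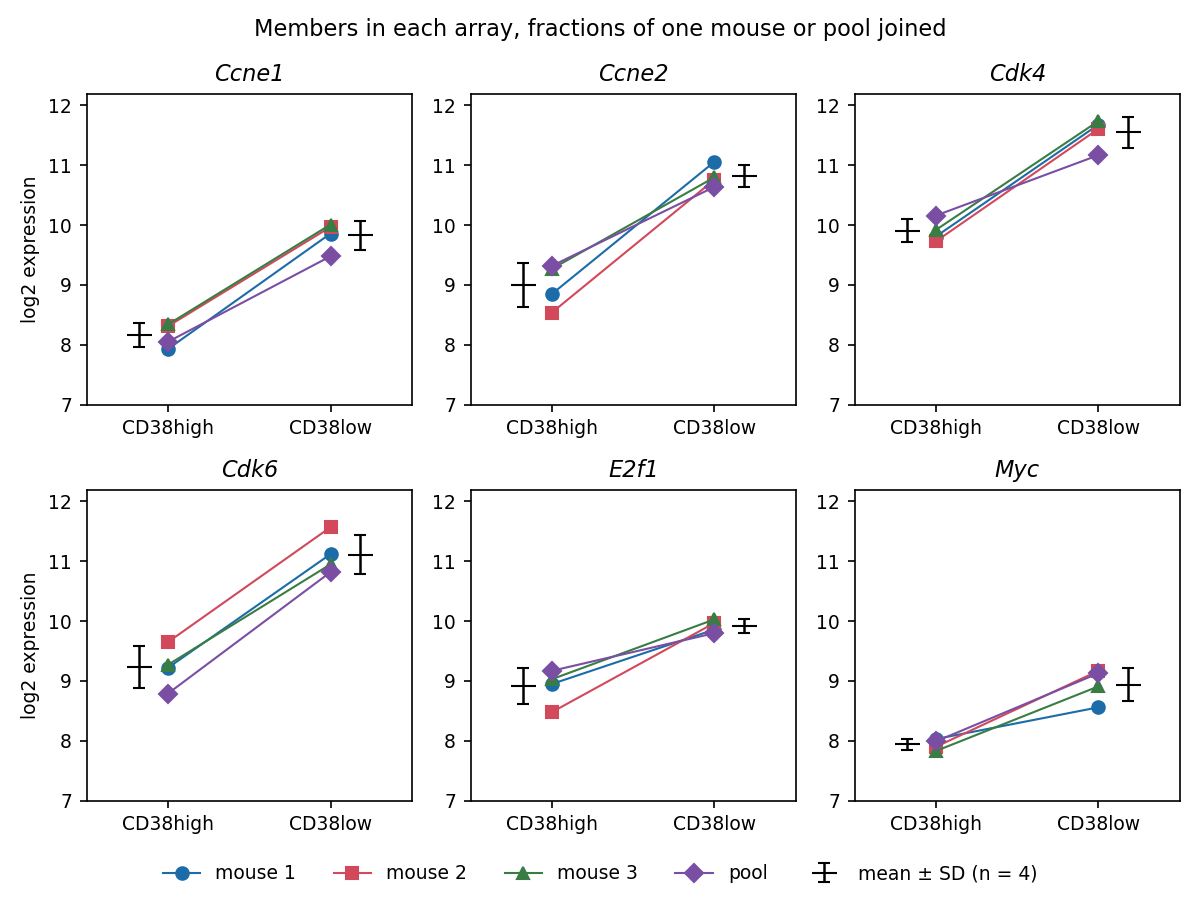
Log2 expression (y axis) of the 6 genes in the CD38high and CD38low fractions (x axis). Points joined by a line are the fractions of one mouse or of the pool, and black bars are mean ± SD (n = 4). Every line goes upward from CD38high to CD38low and the fractions do not overlap for any of the 6 genes.

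CDK4 and CDK6 are the catalytic partners of the D-type cyclins. Cdk4 (chromosome 10) stood at 9.81, 9.73, 9.92 and 10.16 in CD38high cells of mouse 1, mouse 2, mouse 3 and the pool, against 11.68, 11.61, 11.74 and 11.17 in CD38low cells of the same sources. The 3 mice lay within 0.19 of each other in CD38high and within 0.13 in CD38low cells. The pool was the highest of the CD38high and the lowest of the CD38low values. The log2 difference was therefore -1.86, -1.88 and -1.81 in the mice and -1.01 in the pool, with a mean of -1.64 ± 0.42 (SD, n = 4), a 3.12-fold lower level in CD38high cells.

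Cdk6 (chromosome 5) had the largest mean difference of the 6 genes. It stood at 9.22, 9.65, 9.27 and 8.79 in CD38high cells of mouse 1, mouse 2, mouse 3 and the pool, against 11.12, 11.57, 10.95 and 10.82 in CD38low cells. Mouse 2 was highest and the pool lowest in both fractions. Its level thus differed between sources, while its difference between fractions varied little, at -1.9, -1.92, -1.68 and -2.03, with a mean of -1.88 ± 0.15 (SD, n = 4; 3.69-fold lower). This was the smallest spread of the difference among the 6 genes, and Cdk6 ranked 15 of the 374 lower rows of the authors' deposited table by size. The Cdk4 difference was smaller than that of Cdk6 by 0.24 ± 0.53 (SD, n = 4), which comes from the pool, where the gap was 1.02; in the mice it was 0.04, 0.05 and -0.14.

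Cyclin E1 and cyclin E2 are close relatives that activate CDK2 at the end of G1. Ccne1 (chromosome 7) stood at 7.93, 8.31, 8.34 and 8.05 in CD38high cells of mouse 1, mouse 2, mouse 3 and the pool, against 9.86, 9.97, 10.01 and 9.48 in CD38low cells. The groups were separated by a gap of 1.14, and the CD38low pool was again the lowest of its fraction. The differences were -1.93, -1.66, -1.67 and -1.43, with a mean of -1.67 ± 0.2 (SD, n = 4; 3.19-fold lower).

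Ccne2 (chromosome 4) stood at 8.85, 8.54, 9.27 and 9.32 in CD38high cells of mouse 1, mouse 2, mouse 3 and the pool, against 11.06, 10.76, 10.8 and 10.64 in CD38low cells. The gap between the groups, 1.32, was the widest of the 6 genes. Its difference also had the largest spread, at -2.21 and -2.22 in mice 1 and 2 and at -1.53 and -1.32 in mouse 3 and the pool, with a mean of -1.82 ± 0.47 (SD, n = 4; 3.53-fold lower). Ccne1 was lowered less than Ccne2 in mice 1 and 2, by 0.28 and 0.56, and more in mouse 3 and the pool, where the values were -0.15 and -0.11. The mean of these, 0.15 ± 0.34 (SD, n = 4), was within their spread.

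E2F1 is the activator factor released when the retinoblastoma protein is phosphorylated. E2f1 (chromosome 2) stood at 8.95, 8.48, 9.03 and 9.17 in CD38high cells of mouse 1, mouse 2, mouse 3 and the pool, against 9.86, 9.97, 10.03 and 9.8 in CD38low cells. The spread was wider in CD38high cells (SD 0.3), where mouse 2 was lowest, than in CD38low cells (SD 0.11). The differences were -0.91, -1.49, -1.01 and -0.63, with a mean of -1.01 ± 0.36 (SD, n = 4; 2.01-fold lower). Of the 6 genes, E2f1 alone lost the limma call when both arrays of mouse 1 were left out. Its mean difference was then -1.04. Of all 23332 probesets, 427 were called lower in that setting, against 1606 with all arrays.

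Myc (chromosome 15) showed the opposite spread. It stood at 8.03, 7.9, 7.83 and 7.99 in CD38high cells of mouse 1, mouse 2, mouse 3 and the pool, against 8.56, 9.17, 8.91 and 9.13 in CD38low cells. The CD38high values lay close together (SD 0.09), and mouse 1 was lowest in CD38low cells (SD 0.28). The difference was -0.53 in mouse 1, and -1.27, -1.08 and -1.14 in mouse 2, mouse 3 and the pool, with a mean of -1.0 ± 0.33 (SD, n = 4; 2.01-fold lower). E2f1 and Myc had like means but did not follow each other across sources: the difference of E2f1 minus that of Myc was -0.37, -0.22, 0.07 and 0.51 in mouse 1, mouse 2, mouse 3 and the pool.

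E2f1 and Myc lie near the 2-fold limit of the authors' deposited table, at ranks 361 and 368 of its 374 lower rows. The lower rows nearest the limit are Wdr74 at -1.0 and Polr2f and Suv39h2 at -1.002 each, and the nearest unlisted probesets with a p under 0.001 in the methods' t-test lay at -0.997 and carry no gene name. Of the 24 differences within a mouse or pool, 21 were at least 2-fold. The other 3 were E2f1 in mouse 1 and in the pool and Myc in mouse 1.

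**Figure D2:**
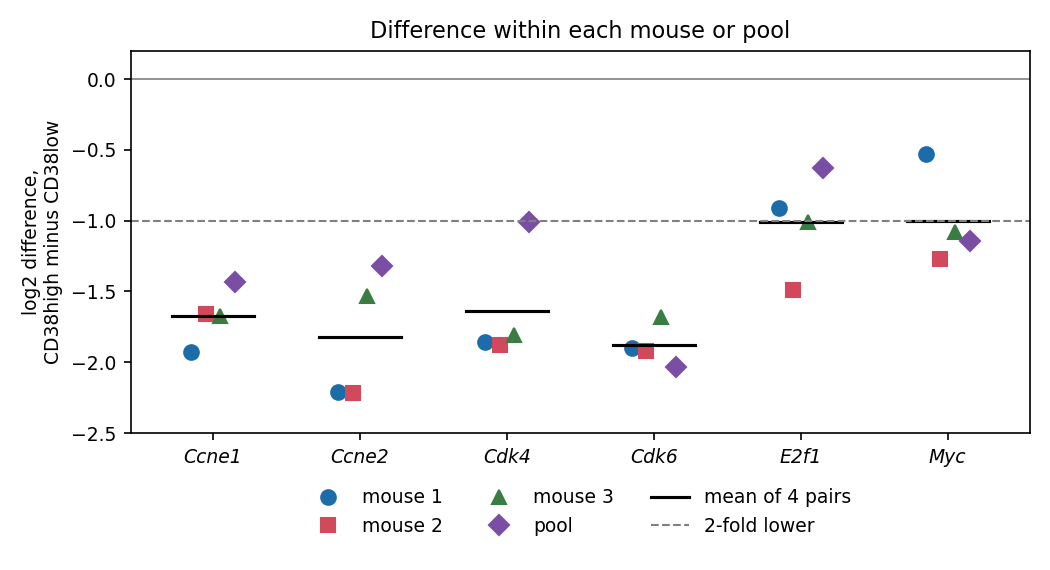
Log2 difference, CD38high minus CD38low (y axis), within each mouse and the pool for the 6 genes (x axis), with black lines at the mean of the 4 pairs and a dashed line at a 2-fold lower level. Cdk6 points lie between -2.03 and -1.68, and the points above the dashed line are E2f1 in mouse 1 and the pool and Myc in mouse 1.

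Within a fraction the 6 genes did not vary as a block. The deviation of each array from the mean of its fraction ranged from -0.46 to 0.45 on the log2 scale. The authors' p limit bounds the size of these deviations, while their pattern across genes was not part of the choice. In CD38high cells of mouse 2, Ccne2 and E2f1 were 0.46 and 0.43 below the mean of the fraction and Cdk6 was 0.41 above it. In the CD38high pool the same 3 genes lay on the other side, with Ccne2 and E2f1 at 0.33 and 0.26 above and Cdk6 at 0.44 below. Both cyclin E genes, both kinase genes and E2f1 were lowest in the pool among the CD38low arrays, 5 of the 6 genes, whereas Myc was 0.19 above its mean there. The CD38low pool was also the lowest CD38low array for 49.7% of the 362 named genes lower in CD38high cells, and it had the lowest Cd38 value, 9.63. Averaged over the 6 genes, the difference was -1.56, -1.74 and -1.46 in mouse 1, mouse 2 and mouse 3 and -1.26 in the pool.

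**Figure D3:**
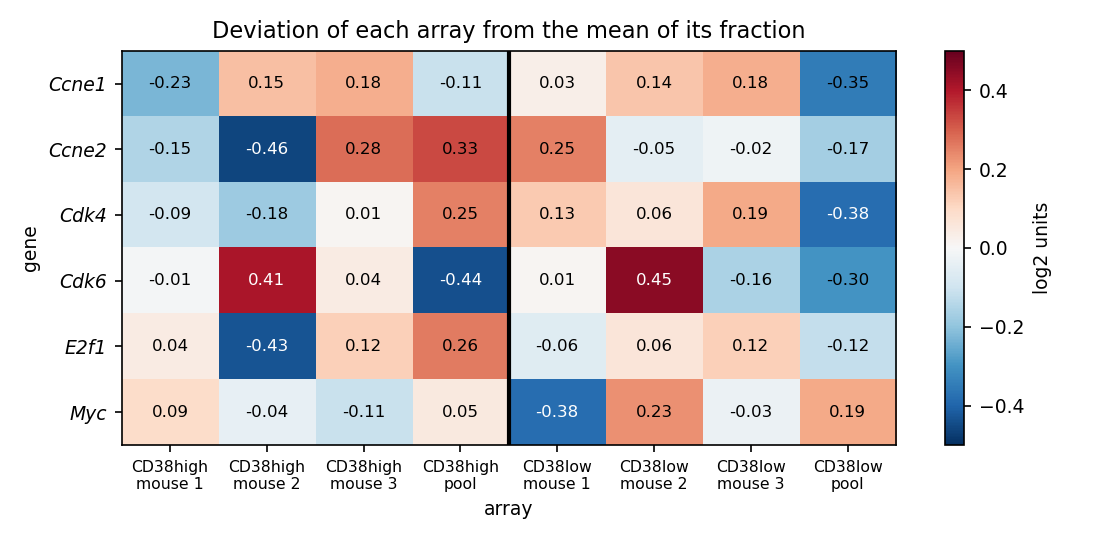
Deviation of each array (x axis) from the mean of its own fraction for each of the 6 genes (y axis), in log2 units, with red above and blue below the mean. Cdk6 is high in both fractions of mouse 2 and low in both fractions of the pool, while Ccne2 and E2f1 are low in CD38high cells of mouse 2.

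The named genes with the most similar profile were found by the root mean square difference over the 8 arrays, after each gene was centred on its own mean, among the 482 genes of the authors' deposited table. Since all were selected on the same contrast, this describes likeness and carries no test. Nearest to Ccne1 were Mcm7, a subunit of the replicative helicase, at 0.072, and Exo1, a DNA exonuclease, at 0.112, against a median of 0.308 for the 361 other genes lower in CD38high cells. Nearest to E2f1 were Timeless, a protein of the replication fork, at 0.086, and Aldh18a1, an enzyme of proline synthesis, at 0.108 (median 0.332). Nearest to Cdk4 were Rpp14, an RNase P subunit, at 0.099, and Pa2g4, a growth-linked RNA-binding protein, at 0.138 (median 0.338).

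The other 3 genes had no such close neighbours. Nearest to Ccne2 were Rpp14 at 0.197 and Cdk4 at 0.203 (median 0.436). Nearest to Cdk6 were Wdhd1, a replication fork protein, at 0.194 and Ddx1, an RNA helicase, at 0.211 (median 0.45). Nearest to Myc were Lonp1, a mitochondrial protease, at 0.166 and Slc1a5, a glutamine transporter, at 0.176 (median 0.348). Among the 6 themselves, Ccne1 and Cdk4 were the closest, at 0.195, and Cdk6 and E2f1 the farthest apart, at 0.614.

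Of 46 regulators of the G1/S step, 8 could be named, through the authors' deposited table alone. All 8 were called lower and none higher, with a median log2 difference of -1.46, where 6.88% of all probesets were called lower. Naming genes only through a table of changes fixes such a count in advance, here and in the lists that follow. Beside the 6 genes these were Skp2, the F-box protein that marks the CDK inhibitor p27 for destruction, at 8.08 ± 0.15 in CD38high and 9.35 ± 0.29 in CD38low cells (SD, n = 4 each; 2.41-fold lower), and E2f6, an E2F that represses transcription, at 7.55 ± 0.14 in CD38high and 8.72 ± 0.24 in CD38low cells (SD, n = 4 each; 2.26-fold lower). The other 38, among them the D-type cyclins, Cdk2, Rb1 and the CDK inhibitors, could not be found by name and are not analysed here. A gene without a name is not shown to be unchanged.

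Genes downstream of E2F and MYC stood on the same side. Of 63 E2F targets of DNA replication, 49 could be named, and all 49 were called lower and none higher, with a median of -1.51. Of all probesets 6.88% were called lower, and 1.6% are lower rows of the authors' deposited table. The largest differences were those of Hells, a chromatin helicase of dividing cells (6.66 ± 0.1 in CD38high and 9.19 ± 0.37 in CD38low cells, SD, n = 4 each; 5.76-fold lower), Pole2, a DNA polymerase epsilon subunit (4.04-fold), and the helicase subunits Mcm2 (4.03-fold) and Mcm6 (3.87-fold). Of 51 MYC targets of growth, 15 could be named, Cdk4 among them, and all 15 were called lower and none higher, with a median of -1.42. The 4 largest beside Cdk4 were C1qbp, a mitochondrial matrix protein (3.48-fold), Ppat of purine synthesis (3.3-fold), Set, a histone chaperone (3.2-fold), and Umps of pyrimidine synthesis (2.89-fold). Of 39 G2/M genes only Mybl2, a transcription factor of dividing cells, could be named, at 3.44-fold lower. These lists were drawn up with earlier results of these data known, and their named genes were selected on these arrays, so the counts are no independent evidence of direction.

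**Figure D4:**
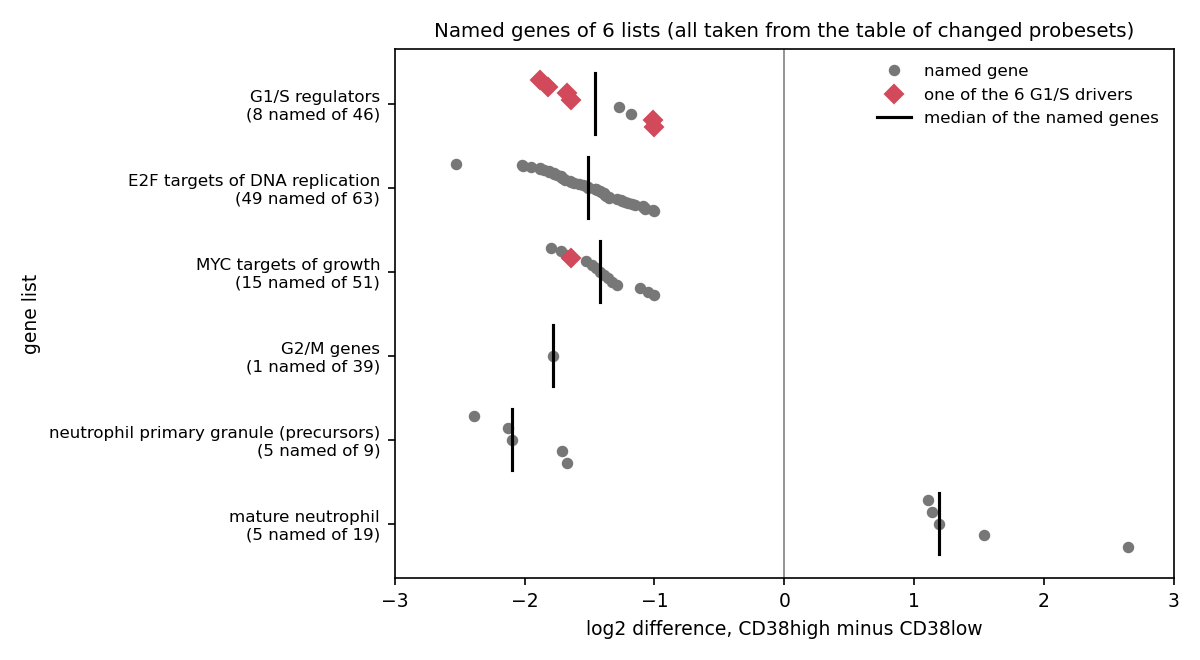
Log2 difference, CD38high minus CD38low (x axis), of every named gene in 4 cell cycle and growth lists and 2 neutrophil lists (y axis). Red diamonds are the 6 genes, grey points other named genes and black lines the medians, at -1.46 for G1/S regulators, -1.51 for E2F targets, -1.42 for MYC targets, -2.1 for primary granule genes and 1.19 for mature neutrophil genes.

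Named markers of neutrophil stage also differed between the fractions, primary granule genes in the direction of the 6 genes and mature neutrophil genes in the other. Of 9 primary granule genes, which granulocyte precursors express, 5 could be named (Mpo, Elane, Prtn3, Ctsg and Ms4a3) and all 5 were called lower, as were 6.88% of all probesets, with a median of -2.1. Their mean level was 10.8 to 11.19 in the CD38high arrays, against 13 to 13.12 in the CD38low arrays. Of 19 mature neutrophil genes, 5 could be named (Stfa3, Il1rn, Fpr1, Clec4e and Hdc) and all 5 were called higher, as were 3.74% of all probesets (873), with a median of 1.19. That background count was 1626 with the replicate block, 356 without the CD38high array of mouse 1 and 113 without both arrays of mouse 1. Their mean level was 11.57 to 11.84 in the CD38high arrays, against 10.01 to 10.44 in the CD38low arrays. The part of cell stage in the lower G1/S genes was not tested.

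Markers of other cell types were sparse. Of 13 monocyte and macrophage markers only Mgl2, a macrophage and dendritic cell lectin, could be named, at 5.66 to 6.34 in CD38high and 8.22 to 8.89 in CD38low cells. Of 7 NK cell markers only Nkg7, a granule protein of cytotoxic cells, could be named, at 8.86 to 10.29 in CD38high and 11.61 to 12.5 in CD38low cells. On the CD38high side stood 1 of 7 B cell markers, Cd79a of the B cell receptor, at 7.99 to 9.75 in CD38high and 6.45 to 7.33 in CD38low cells. There too were 1 of 10 dendritic cell markers, Ccr7, a chemokine receptor (7.58 to 8.08 in CD38high, 6.3 to 6.95 in CD38low cells), and 1 of 6 platelet markers, Selp, the adhesion protein P-selectin (8.38 to 8.75 in CD38high, 7.05 to 7.65 in CD38low cells). The other 6 marker lists, for stem and progenitor, plasma, T, erythroid, stromal and eosinophil, basophil and mast cells, had no named gene. The part of any of these cell types in the lower G1/S genes was not tested.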

How the data were processed

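RNA of the sorted cells was amplified, biotin-labelled and hybridised to Affymetrix arrays, per the labels' protocols. Log2 values were deposited by the authors for 23332 probesets and a table of 498 changed probesets. Affymetrix Power Tools, RMA, PLIER and mm9 are named in the submitters' processing notes; which method gave the values is not given in the sources used here. Each of the 498 rows equalled exactly 1 row of the value table in all 8 values (5 decimals), and only this match names genes. Symbols were updated by RefSeq accession (GRCm38.p6, names only); of several probesets of a gene, the one with the highest mean was used.

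Groups came from the sample titles. All probesets were fitted with lmFit and eBayes (limma 3.58.1, R 4.3.3), unpaired as in the series design, with Benjamini-Hochberg adjustment over all 23332 and a threshold of 0.05; the script was tested on simulated data. Deviations from group means correlated at 0.345 to 0.675 within a mouse or the pool and at -0.577 to 0.1 otherwise. The fractions are thus paired by source, as the labels state for the 3 individual mice, and the unpaired fit ignores this. For the pool, the titles do not say whether both fractions came from the same 3 mice. Its p-values measure the spread between arrays within a fraction. Those of the fit with the replicate block measure the spread of the difference between these 4 sources, 1 of them a pool. Precision is limited by the number of arrays. The members and gene lists were chosen with earlier results of these data known. The text names the 6 genes, up to 4 others per pathway list by size of difference, every named marker, Cd38 and the 2 nearest genes of each member; the rows at the 2-fold limit were named in addition. Other calculations used Python 3.11.15, pandas 2.3.3, numpy 2.4.6 and matplotlib 3.10.9.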

Additional observations from a re-analysis of the deposited data

Results flagged for a closer look

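With Dixon's test in each group of 4 arrays, 3 of 86 groups over 43 named genes had a value far from its neighbours, where chance gives about 4.3. None of the 12 groups of the 6 G1/S genes was among them. In CD38low cells of mouse 3, Mcm2 reached 10.81, while the other CD38low arrays lay between 10.43 and 10.48. In the CD38low pool, Ppat reached 8.71, while the others lay between 9.06 and 9.11. In mouse 3, the CD38high value of Fpr1 was 13.54, while the other CD38high values lay between 13.31 and 13.33.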

How the results depend on the processing

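The direction was lower in CD38high cells for 6 of 6 genes with quantile normalization or median centring on top. Array medians lay between 6.92 and 7.1 and the narrowest gap between groups was 0.53 (Myc), so median centring could not reverse it. The genes were chosen at a 2-fold limit, so no support for the direction is drawn from either setting. The replicate block and the averaging of probesets leave the differences of the 6 genes as they are. Groups that do not overlap keep their direction when 1 array or the 2 arrays of a source are left out. Those settings therefore say nothing about direction either. With arrays left out, the mean log2 difference of Ccne1 lay between -1.79 and -1.59, Ccne2 between -1.99 and -1.67, Cdk4 between -1.85 and -1.56, Cdk6 between -2.02 and -1.73, E2f1 between -1.13 and -0.85 and Myc between -1.16 and -0.92. The value of -1.73 for Cdk6, without the CD38low array of mouse 2, moved by more than the SD of its 4 differences (0.15). That array lay 0.45 above the mean of its fraction, so leaving it out alone made the difference smaller. With both arrays of mouse 2 left out the difference was -1.87. Without the CD38high array of the pool it also rounded to -1.73, which counted as within the SD. Why these arrays lay apart was not tested. The number of the 6 genes called lower was 5 to 6, with 5 when mouse 1 was left out altogether. Of all 23332 probesets, 1606 were called lower with all arrays, 427 without mouse 1, 960 without mouse 3 and 752 without the pool. Since the 6 genes were selected on this contrast, nothing is read from their count. The median of the G1/S list (-1.46) lay between -1.59 and -1.37.

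The background count of 2479 differing probesets was 3929 with the replicate block and 3840 with a random replicate block, and the block ended no call of the 6 genes. The methods' t-test gave 1598 after Benjamini-Hochberg and 351 at its own threshold. With arrays left out the count was 540 to 2436; the cause was not tested. It was 540 without mouse 1, 1334 without mouse 3 and 1125 without the pool. Leaving out a single array gave 1188 (CD38high, mouse 1), 1460 (CD38high, pool) and 1591 (CD38low, mouse 1). Scanner files were not used here, so signal over background is unknown.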
